A study of Mus musculus with 30 samples.

Results

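The comparison set Col6a1cre GFP-negative mesenchymal cells sorted from the colon of mice with DSS-induced colitis against unsorted colon cells, also of mice with DSS-induced colitis. It was defined by the sample labels alone and covered 6 of the 30 samples of the series, with 3 libraries of DSS colon GFP-negative cells and 3 of DSS colon unsorted cells, and every gene of the table that holds both groups. All mice used here were C57BL/6 and carried ColVI-cre together with Rosa mTmG, so the unsorted controls carried both alleles as well. Rosa mTmG is a reporter that makes membrane Tomato until Cre recombines it and membrane GFP afterwards, and ColVI-cre is driven by collagen VI regulatory sequence. GFP-negative cells, titled Tomato in the labels, are by this design those in which the reporter was not recombined. Dextran sulfate sodium (DSS) is a polysaccharide that damages the colonic epithelium when given in drinking water. The labels describe the sorted cells as intestinal mesenchymal cells and the unsorted ones as intestinal cells, all freshly isolated. Not given in the sources used here were mouse age, DSS dose and duration, the sort gate, and whether the libraries of a group came from separate or pooled mice, so the p-values measure only the spread between these samples. Other groups of 3 libraries each were set beside this comparison. They were DSS colon GFP-positive cells, from mice of the same genotype and treatment, and GFP-negative and unsorted cells of normal colon, from mice of that genotype without DSS.

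The mesenchyme of the colon holds several kinds of fibroblast. Fibroblasts close to the epithelium, often called telocytes or subepithelial myofibroblasts, supply BMP ligands and non-canonical Wnt signals that favour epithelial differentiation. Fibroblasts that lie deeper, around the crypt base and in the submucosa, carry CD34 and supply Wnt ligands, R-spondins and BMP antagonists, which sustain epithelial stem cells. In colitis, fibroblasts are also a source of chemokines, interleukin 6 family cytokines and matrix. Unsorted colon cells hold these fibroblasts beside epithelium, leukocytes, endothelium and muscle. A gene can therefore be higher in a sorted population because the population holds more of the cells that express it or more of its RNA per cell. In bulk libraries, fewer cells of a type and less RNA per cell cannot be told apart. The GFP-negative cells were sorted and the unsorted cells were not, so effects of the sorting procedure on RNA cannot be told apart from these either.

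The libraries were made with a 3′ tag kit (QuantSeq), which gives about 1 read per transcript near its polyadenylated end, and the values are the authors' normalised counts per gene, rounded to whole numbers. They are called normalised counts below and are not divided by gene length, so levels are not compared between genes. The estimated depth was 3012656, 3371836 and 3129400 reads in GFP-negative libraries 1 to 3, against 3842350, 3206238 and 3450903 reads in unsorted libraries 1 to 3. Pearson correlations of log2 values across genes were 0.953 to 0.968 among GFP-negative libraries, 0.923 to 0.951 among unsorted libraries, and 0.723 to 0.799 between the groups. No pair of libraries held identical values.

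Of the 16763 genes in the table, 13662 had a mean of at least 10 normalised counts in 1 of the groups and were tested with limma on log2(value + 1). Of these, 1871 genes (13.7%) were higher and 2638 genes (19.3%) were lower in GFP-negative than in unsorted cells at a Benjamini-Hochberg adjusted p of 0.05, and 33.0% differed in either direction. The sizes were unequal. Among the genes that passed, 213 were at least 4-fold higher and 1437 at least 4-fold lower, and 0 were at least 16-fold higher against 502 at least 16-fold lower. Without GFP-negative library 2, 1224 genes passed as higher. In the authors' deposited table, whose DESeq false discovery rate (FDR) was more conservative, 319 genes were higher and 1306 lower at an FDR under 0.05, and 1593 of those 1625 genes were also called here. The share of calls that were lower was 58.5%, but 69.6% when library totals were made equal, 66.2% when totals were made equal without the highest genes and 44.4% after quantile normalisation. These scalings placed the median log2 fold change of all genes at -0.05, -0.23, -0.17 and 0.14 in that order. A gene that was low in GFP-negative cells entered the test through its level in unsorted cells.

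The 4 genes that mark the sorted cells were all higher in every GFP-negative library than in any unsorted library, a separation found for 19.9% of the genes tested, while 24.7% were lower in every GFP-negative library. Ackr4 (ENSMUSG00000079355, mm10 chr9:104084157-104126933, minus strand) encodes an atypical receptor that takes up the chemokines CCL19, CCL21 and CCL25. It had 166, 252 and 267 normalised counts in GFP-negative libraries, against 37, 57 and 26 in unsorted libraries, a log2 fold change of 2.52 ± 0.31 (SE, n = 3 each, limma adjusted p = 6.82e-05). C3 (ENSMUSG00000024164, mm10 chr17:57203970-57228136, minus strand), the central complement component, had 11433, 15203 and 11921 in GFP-negative libraries, against 2328, 2546 and 2213 in unsorted libraries. The groups lay far apart and the log2 fold change was 2.43 ± 0.24 (limma adjusted p = 1.48e-05). Sfrp1 (ENSMUSG00000031548, mm10 chr8:23411502-23449632, plus strand), a secreted Wnt inhibitor, had 7569, 6505 and 6876 in GFP-negative libraries, against 2086, 1399 and 1352 in unsorted libraries (log2 fold change 2.14 ± 0.25, limma adjusted p = 5.16e-05). Adamts2 (ENSMUSG00000036545, mm10 chr11:50602084-50807573, plus strand), which cleaves the N-terminal propeptide of fibrillar procollagens, had 985, 1384 and 1018 in GFP-negative libraries, against 184, 358 and 236 in unsorted libraries (log2 fold change 2.16 ± 0.28, limma adjusted p = 9.14e-05). The ratio of group means was 5.71 for Ackr4, 5.44 for C3, 4.33 for Sfrp1 and 4.35 for Adamts2, and all of them also passed the FDR of the authors' deposited table.

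Further defining genes were read beside the label of mesenchymal cells. Cd34, the sialomucin that marks the deeper fibroblasts, had 1300, 1299 and 1259 normalised counts in GFP-negative libraries, against 352, 207 and 291 in unsorted libraries (log2 fold change 2.21 ± 0.24, limma adjusted p = 3.05e-05). Pdgfra, a platelet-derived growth factor receptor of fibroblasts, had 912, 1209 and 1212 in GFP-negative libraries, against 414, 497 and 456 in unsorted libraries (log2 fold change 1.28 ± 0.23, limma adjusted p = 0.000973), with no overlap between the groups. Its FDR in the authors' deposited table was 0.183. Markers of other lineages were low. Epcam, an adhesion molecule of epithelium, had 13, 30 and 98 in GFP-negative libraries, against 447, 638 and 1036 in unsorted libraries (log2 fold change -4.25 ± 0.56, limma adjusted p = 0.000145). Ptprc, which encodes the leukocyte antigen CD45, had 5, 3 and 6, against 537, 304 and 197 in unsorted libraries (log2 fold change -5.85 ± 0.38, limma adjusted p = 7.03e-07). Pecam1, an endothelial adhesion molecule, had 10, 7 and 8, against 136, 134 and 119 in unsorted libraries (log2 fold change -3.82 ± 0.28, limma adjusted p = 1.73e-06). Fibroblast genes were thus high, and epithelial, leukocyte and endothelial ones low, in cells labelled mesenchymal. The sort gate is not given, and the markers were chosen with earlier results of these data known. These values are therefore not an independent test of the label.

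The gene of the Cre driver and the surface protein of the complementary population gave less clear values. Col6a1, a chain of collagen VI, had 968, 491 and 406 normalised counts in GFP-negative libraries, against 398, 207 and 142 in unsorted libraries. GFP-negative library 1 and unsorted library 1 were the highest of their groups. The log2 fold change was 1.34 ± 0.40 (limma adjusted p = 0.0215). This call was lost without unsorted library 2 (1.28, adjusted p = 0.0685), without unsorted library 3 (1.01, adjusted p = 0.0725) and without GFP-negative library 1 (0.97, adjusted p = 0.0735). It was also lost with neither trend nor robust variance (adjusted p = 0.0533) and had an FDR of 0.15 in the authors' deposited table. Procr, the gene of CD201, a receptor that binds activated protein C, had 519, 792 and 712 in GFP-negative libraries, against 813, 932 and 1209 in unsorted libraries, all below but with a log2 fold change of -0.55 ± 0.25 that did not pass (limma adjusted p = 0.12). It passed with equal library totals (-0.72, adjusted p = 0.0417). Foxl1, a telocyte transcription factor, had 16, 21 and 27 in GFP-negative libraries, against 21, 21 and 19 in unsorted libraries, and the groups overlapped (log2 fold change 0.04 ± 0.34, limma adjusted p = 0.942). Acta2, smooth muscle actin, had 714, 424 and 407 in GFP-negative libraries, against 1320, 1510 and 1068 in unsorted libraries, and was lower (log2 fold change -1.37 ± 0.27, limma adjusted p = 0.00197), although its FDR in the authors' deposited table was 0.146.

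**Figure D1:**
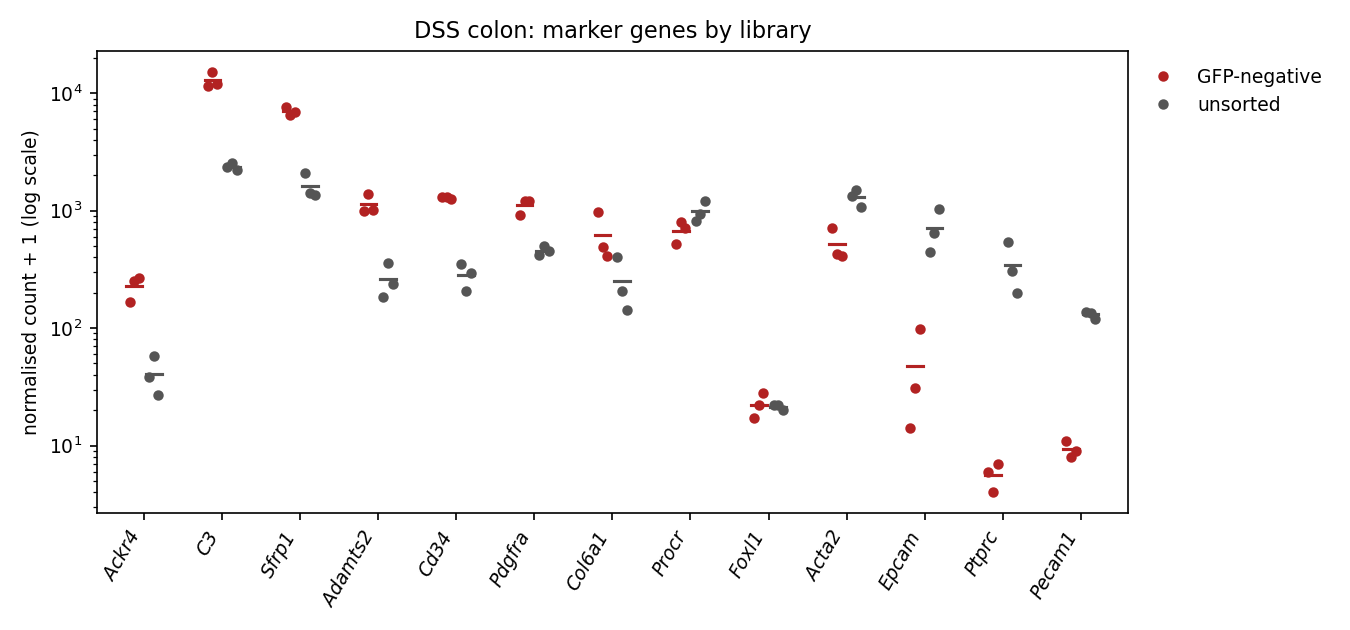
Normalised counts plus 1 on a log axis for 13 marker genes, with the 3 DSS GFP-negative libraries left of the 3 DSS unsorted libraries of each gene. Points are libraries and short bars are group means. Ackr4, C3, Sfrp1, Adamts2, Cd34 and Pdgfra lay higher in GFP-negative cells, Foxl1 overlapped, and Epcam, Ptprc and Pecam1 lay lower.

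Genes that mark CD34-positive fibroblasts rose together. Of 24 such genes, all tested, 20 were higher and 1 was lower in GFP-negative cells, with a median log2 fold change of 2.14, where the median over all tested genes was -0.05. In the authors' deposited table, 16 were higher and 1 was lower. The list holds the 4 markers of the sort, so its direction is not independent of them. Clec3b, which encodes the plasminogen-binding protein tetranectin, had 1879, 2139 and 2124 normalised counts in GFP-negative libraries, against 247, 207 and 325 in unsorted libraries (log2 fold change 3.00 ± 0.24, limma adjusted p = 2.71e-06). Fbln1, a fibulin of elastic matrix, had 3781, 2745 and 2949 in GFP-negative libraries, against 599, 344 and 557 in unsorted libraries (log2 fold change 2.68 ± 0.27, limma adjusted p = 1.54e-05). Gsn, the actin-severing protein gelsolin, had 7308, 8309 and 6886 in GFP-negative libraries, against 988, 1720 and 1461 in unsorted libraries (log2 fold change 2.46 ± 0.27, limma adjusted p = 2.54e-05). Each of these separated the groups without overlap. The member that was lower was Dpp4, a dipeptidyl peptidase found on fibroblast progenitors but also on epithelium and T cells, with 2, 3 and 2 in GFP-negative libraries, against 79, 64 and 36 in unsorted libraries (log2 fold change -4.13 ± 0.42, limma adjusted p = 1.69e-05). The 3 members that did not pass were Cd81, Ly6a and Ly6c1. Ly6a, which encodes Sca-1, had 2113, 1657 and 1775 in GFP-negative libraries, against 1907, 1652 and 1121 in unsorted libraries, and overlapped.

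Of 24 pan-fibroblast genes, all tested, 21 were higher and 0 were lower, with a median log2 fold change of 1.57. In the authors' deposited table, 6 were higher and 0 lower. Fap, the fibroblast activation protease, had 94, 109 and 177 normalised counts in GFP-negative libraries, against 23, 23 and 18 in unsorted libraries (log2 fold change 2.47 ± 0.30, limma adjusted p = 5.79e-05). Fbn1, the microfibril protein fibrillin, had 2189, 1738 and 1388 in GFP-negative libraries, against 490, 211 and 313 in unsorted libraries (log2 fold change 2.45 ± 0.31, limma adjusted p = 8.16e-05). Sparc, a collagen-binding matrix glycoprotein, had 18133, 25596 and 24992 in GFP-negative libraries, against 4785, 4783 and 5534 in unsorted libraries (log2 fold change 2.17 ± 0.26, limma adjusted p = 5.04e-05). Vim, Thy1 and Prrx1 did not pass. Vim, an intermediate filament protein that leukocytes and endothelium make as well, had 2246, 1523 and 1268 in GFP-negative libraries, against 1993, 1964 and 886 in unsorted libraries, and overlapped.

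Telocyte genes did not move as a group. Of 18 telocyte genes tested, 4 were higher and 5 were lower, with a median log2 fold change of -0.01. The shares over all tested genes were 13.7% higher and 19.3% lower. In the authors' deposited table, 1 was higher and 3 were lower. The lower count was 2 without unsorted library 2, 3 without unsorted library 3 and 3 without GFP-negative library 1, and the higher count was 2 without GFP-negative library 3. Ednrb, an endothelin receptor, had 29, 40 and 55 normalised counts in GFP-negative libraries, against 199, 168 and 157 in unsorted libraries (log2 fold change -2.09 ± 0.27, limma adjusted p = 0.000106). Bmp3, a divergent BMP ligand that opposes BMP signalling, had 1, 3 and 5 in GFP-negative libraries, against 29, 20 and 41 in unsorted libraries (log2 fold change -3.04 ± 0.51, limma adjusted p = 0.000656). Frzb, a Wnt inhibitor, went the other way with 480, 738 and 794 in GFP-negative libraries, against 87, 230 and 238 in unsorted libraries (log2 fold change 1.95 ± 0.37, limma adjusted p = 0.0017). Summed over the 18 genes, the level was 2985, 3842 and 3775 in GFP-negative libraries, against 2563, 3023 and 3431 in unsorted libraries, and these ranges overlapped.

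Contractile and mural genes held members of both directions and members that did not pass. Over all tested genes, 19.3% were lower and 13.7% higher. Of 16 smooth muscle and myofibroblast genes tested, 6 were lower and 2 were higher, with a median log2 fold change of -0.62, and in the authors' deposited table, 0 passed. The higher count was 1 without unsorted library 1, without unsorted library 3, without GFP-negative library 2 and without GFP-negative library 3. Actg2, enteric actin, had 59, 67 and 77 normalised counts in GFP-negative libraries, against 213, 135 and 211 in unsorted libraries (log2 fold change -1.43 ± 0.26, limma adjusted p = 0.00103). Mylk, myosin light chain kinase, had 1896, 2645 and 2244 in GFP-negative libraries, against 2318, 2581 and 4003 in unsorted libraries, and overlapped. Of 10 pericyte genes tested, 3 were lower and 1 was higher, and in the authors' deposited table, 1 was lower. The higher pericyte count was 0 without unsorted library 1, without unsorted library 3 and without GFP-negative library 2. Mcam, an adhesion molecule of pericytes and endothelium, had 255, 305 and 311 in GFP-negative libraries, against 1372, 1694 and 1070 in unsorted libraries (log2 fold change -2.22 ± 0.24, limma adjusted p = 2.63e-05), and was also called in the authors' deposited table.

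Epithelial genes were lower in the sorted cells, which kept some epithelial reads. Of 27 epithelial genes, 25 were tested, and 25 were lower in GFP-negative cells and 0 were higher, with a median log2 fold change of -3.85. Muc2, the main mucin of goblet cells, had 5, 7 and 32 normalised counts in GFP-negative libraries, against 843, 1105 and 1739 in unsorted libraries (log2 fold change -6.66 ± 0.53, limma adjusted p = 3.88e-06). Agr2, a protein disulfide isomerase that goblet cells need to make mucin, had 1, 5 and 10 in GFP-negative libraries, against 312, 580 and 741 in unsorted libraries (log2 fold change -6.65 ± 0.54, limma adjusted p = 4.38e-06). Cdh1, E-cadherin, had 70, 97 and 281 in GFP-negative libraries, against 912, 1946 and 3267 in unsorted libraries (log2 fold change -3.84 ± 0.52, limma adjusted p = 0.000157). GFP-negative library 3 was the highest of its group for each of these genes and remained below every unsorted library. Epithelial defence genes followed, with 9 of 9 tested lower and a median log2 fold change of -4.22. Retnlb, an antibacterial product of goblet cells, had 0, 0 and 6 in GFP-negative libraries, against 545, 644 and 534 in unsorted libraries (log2 fold change -8.23 ± 0.62, limma adjusted p = 2.62e-06). Reg3b, an antibacterial lectin induced in colitis, had 150, 40 and 281 in GFP-negative libraries, against 3307, 2723 and 3269 in unsorted libraries (log2 fold change -4.68 ± 0.53, limma adjusted p = 4.53e-05).

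Leukocyte genes were lower. All 12 pan-leukocyte genes, all 17 macrophage and monocyte genes, all 7 MHC class II genes and all 7 B cell genes tested were lower, as were 12 of 13 T and NK cell genes, 12 of 14 neutrophil genes and 7 of 9 plasma cell genes. None of the 8 mast cell genes listed reached the level needed for the test. The T and NK cell list had 0 higher genes, and 1 without unsorted library 1. Fcer1g, the signalling chain of Fc receptors, had 5, 1 and 9 normalised counts in GFP-negative libraries, against 636, 663 and 324 in unsorted libraries (log2 fold change -6.71 ± 0.51, limma adjusted p = 2.97e-06). Lyz2, the lysozyme of macrophages and neutrophils, had 5, 18 and 37 in GFP-negative libraries, against 1261, 1777 and 1228 in unsorted libraries (log2 fold change -6.43 ± 0.51, limma adjusted p = 4.09e-06). H2-Aa, an MHC class II chain, had 69, 73 and 121 in GFP-negative libraries, against 8796, 8979 and 4729 in unsorted libraries (log2 fold change -6.39 ± 0.31, limma adjusted p = 1.99e-07). The groups were separated by more than an order of magnitude for all of them. S100a8 and S100a9 encode the subunits of calprotectin, the neutrophil protein measured in stool as a sign of colitis. S100a9 had 148, 121 and 114 in GFP-negative libraries, against 5715, 5830 and 3116 in unsorted libraries (log2 fold change -5.20 ± 0.28, limma adjusted p = 2.43e-07). Fcgr1, an Fc receptor of macrophages, was at 0 in all 3 GFP-negative libraries, against 145, 80 and 58 in unsorted libraries. Igha, the constant region of IgA made by plasma cells, kept some reads, with 1087, 542 and 1935 in GFP-negative libraries, against 37924, 13008 and 12130 in unsorted libraries (log2 fold change -4.12 ± 0.50, limma adjusted p = 7.28e-05).

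Endothelial genes were lower as well. Of 16 blood endothelial genes tested, 13 were lower and 1 was higher, with a median log2 fold change of -3.03. The higher count was 2 without unsorted library 3. Kdr, the main receptor for vascular endothelial growth factor, had 29, 41 and 53 normalised counts in GFP-negative libraries, against 478, 391 and 401 in unsorted libraries (log2 fold change -3.37 ± 0.26, limma adjusted p = 2.14e-06). The higher member was Ramp2, a co-receptor for adrenomedullin that fibroblasts also express, with 276, 345 and 342 in GFP-negative libraries, against 131, 100 and 215 in unsorted libraries (log2 fold change 1.17 ± 0.28, limma adjusted p = 0.00709), and it did not pass in the authors' deposited table. Of 6 lymphatic endothelial genes, 5 were lower and 0 higher. Ccl21a, the lymphatic chemokine that guides dendritic cells, had 53, 26 and 23 in GFP-negative libraries, against 754, 257 and 303 in unsorted libraries (log2 fold change -3.57 ± 0.41, limma adjusted p = 5.49e-05). Near-identical Ccl21 genes exist in the mouse, so its reads may belong to more than 1 copy. All 5 erythroid genes tested were lower.

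Summed levels of the marker lists gave the same picture by library. Epithelial genes summed to 391, 403 and 1062 normalised counts in GFP-negative libraries, against 4450, 8676 and 11267 in unsorted libraries. Pan-leukocyte genes summed to 173, 133 and 278 in GFP-negative libraries, against 13932, 8840 and 7848 in unsorted libraries. Pan-fibroblast genes summed to 119710, 106745 and 105014 in GFP-negative libraries, against 34965, 40352 and 26622 in unsorted libraries. Unsorted libraries therefore held fibroblast RNA too, and unsorted library 1 was the highest of its group for leukocytes and unsorted library 3 for epithelium.

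**Figure D2:**
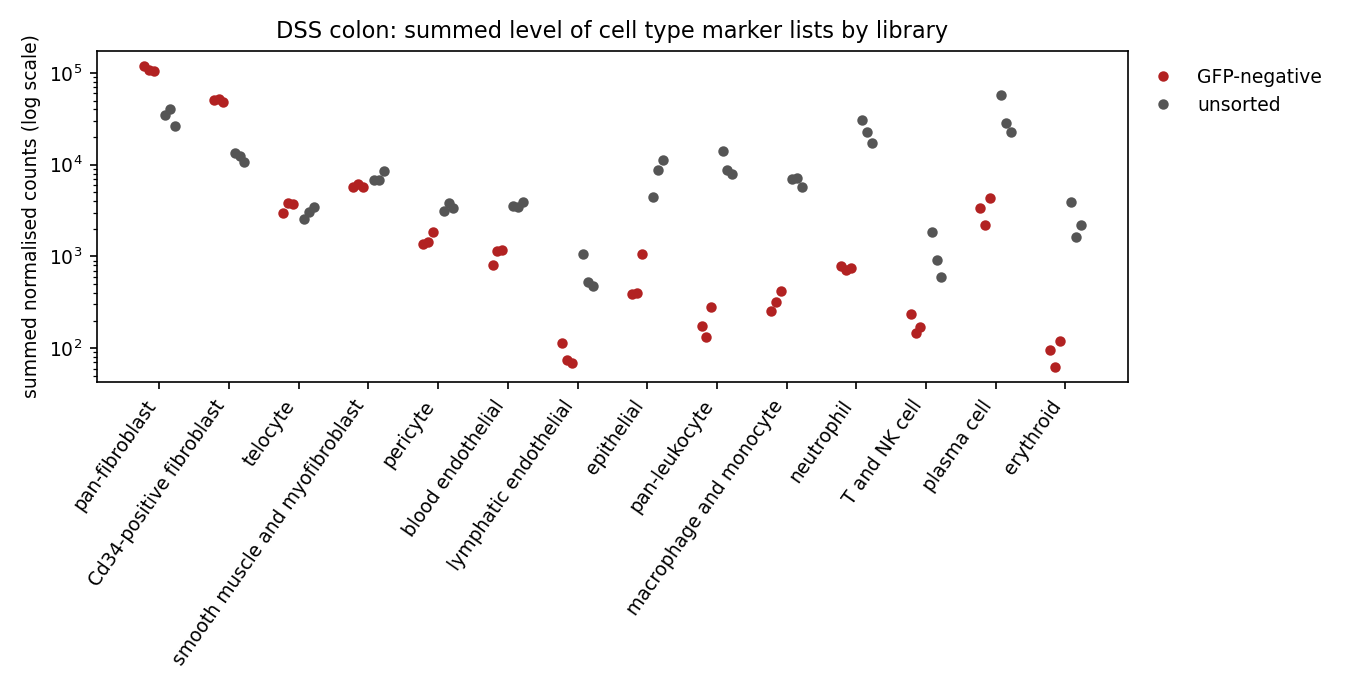
Summed normalised counts on a log axis of 14 marker lists in each library, with the 3 DSS GFP-negative libraries left of the 3 DSS unsorted libraries. Fibroblast lists lay higher in GFP-negative cells, the telocyte list overlapped, and epithelial, leukocyte and endothelial lists lay lower.

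Matrix genes were higher, but their lists share members with the fibroblast lists above. Col3a1 and Lum are also pan-fibroblast genes, and Col14a1 and Fbln1 also CD34-positive fibroblast genes. Grem1 and Rspo3, in signalling lists below, are CD34-positive fibroblast genes too. The counts of these lists are therefore not independent results. Of 17 fibrillar and other collagen genes tested, 15 were higher and 0 lower, with a median log2 fold change of 1.58, and in the authors' deposited table, 6 were higher. Col14a1, a fibril-associated collagen, had 2573, 1782 and 1953 normalised counts in GFP-negative libraries, against 550, 405 and 291 in unsorted libraries (log2 fold change 2.37 ± 0.28, limma adjusted p = 4.36e-05). Col8a1, a short-chain network collagen, had 677, 503 and 673 in GFP-negative libraries, against 148, 132 and 139 in unsorted libraries (log2 fold change 2.13 ± 0.22, limma adjusted p = 2.12e-05). Col3a1, a chief fibrillar collagen, had 28832, 22290 and 21997 in GFP-negative libraries, against 7786, 10863 and 5017 in unsorted libraries (log2 fold change 1.69 ± 0.31, limma adjusted p = 0.00126), but an FDR of 0.19 in the authors' deposited table. Within collagen VI, Col6a3 had 6003, 4405 and 4666 in GFP-negative libraries, against 1621, 1019 and 1373 in unsorted libraries (log2 fold change 1.92 ± 0.26, limma adjusted p = 0.000134).

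Of 26 elastic fibre and small proteoglycan genes tested, 25 were higher and 0 lower at a median log2 fold change of 1.77, and 13 higher in the authors' deposited table. Eln, elastin itself, had 3930, 3141 and 2589 normalised counts in GFP-negative libraries, against 823, 981 and 610 in unsorted libraries (log2 fold change 2.01 ± 0.26, limma adjusted p = 0.00011). Bgn, the proteoglycan biglycan, had 13839, 20270 and 18373 in GFP-negative libraries, against 3400, 2105 and 3971 in unsorted libraries (log2 fold change 2.50 ± 0.30, limma adjusted p = 5.06e-05). Lum, lumican, had 2442, 1212 and 1727 in GFP-negative libraries, against 509, 345 and 336 in unsorted libraries (log2 fold change 2.14 ± 0.29, limma adjusted p = 0.000134). The exception was Fbn2, a fibrillin of developing tissue, with 25, 18 and 22 in GFP-negative libraries, against 11, 19 and 23 in unsorted libraries, which overlapped. Basement membrane genes were less uniform, with 11 of 16 higher and 1 lower (median log2 fold change 1.08), and 3 higher and 0 lower in the authors' deposited table. That lower count was 0 without unsorted library 2, GFP-negative library 2 or GFP-negative library 3. Lama2, a laminin chain of mesenchymal basement membranes, had 259, 392 and 453 in GFP-negative libraries, against 69, 124 and 60 in unsorted libraries (log2 fold change 2.15 ± 0.31, limma adjusted p = 0.000213). Lama4, a laminin chain of vessels and muscle, had 789, 1028 and 841 in GFP-negative libraries, against 187, 172 and 377 in unsorted libraries (log2 fold change 1.93 ± 0.30, limma adjusted p = 0.000352). Nid2, a nidogen that links laminin to collagen IV, had 290, 293 and 200 in GFP-negative libraries, against 180, 270 and 230 in unsorted libraries, and overlapped.

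Matrix proteases and their inhibitors split, where 13.7% of all tested genes were higher and 19.3% lower. Of 24 tested, 15 were higher and 5 lower, with a median log2 fold change of 1.0, and in the authors' deposited table, 4 were higher and 2 lower. Timp2, a metalloprotease inhibitor, had 8245, 8828 and 8011 normalised counts in GFP-negative libraries, against 1745, 1811 and 1948 in unsorted libraries (log2 fold change 2.19 ± 0.23, limma adjusted p = 2.02e-05). Adamts5, an aggrecan-cleaving protease, had 184, 283 and 316 in GFP-negative libraries, against 59, 75 and 64 in unsorted libraries (log2 fold change 1.94 ± 0.26, limma adjusted p = 0.000121). Mmp8 and Mmp9, which neutrophils store in granules, were lower. Mmp9 had 29, 8 and 15 in GFP-negative libraries, against 223, 352 and 218 in unsorted libraries (log2 fold change -3.99 ± 0.40, limma adjusted p = 1.82e-05). Mmp13, a collagenase, had 98, 122 and 175 in GFP-negative libraries, against 379, 256 and 311 in unsorted libraries (log2 fold change -1.28 ± 0.27, limma adjusted p = 0.00281), with an FDR of 0.176 in the authors' deposited table.

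Several genes for signals known to sustain crypt stem cells were higher in GFP-negative cells. Among BMP antagonists, 9 of 11 tested were higher and 0 lower, with a median log2 fold change of 1.30, but 1 in the authors' deposited table. That 1 was Grem1, gremlin 1, which binds BMP ligands around the crypt base. Grem1 had 2914, 2690 and 3318 normalised counts in GFP-negative libraries, against 595, 772 and 671 in unsorted libraries (log2 fold change 2.13 ± 0.23, limma adjusted p = 2.54e-05), a ratio of means of 4.38. Fstl1, a follistatin-like protein, had 4803, 3679 and 3292 in GFP-negative libraries, against 1552, 1622 and 1234 in unsorted libraries (log2 fold change 1.41 ± 0.25, limma adjusted p = 0.000937). Among Wnt ligands, 5 of 7 tested were higher and 0 lower, with a median log2 fold change of 1.66 and 2 higher in the authors' deposited table. Wnt2b, a canonical ligand, had 160, 180 and 233 in GFP-negative libraries, against 39, 42 and 45 in unsorted libraries (log2 fold change 2.14 ± 0.24, limma adjusted p = 3.53e-05). Wnt9a had 47, 73 and 69 in GFP-negative libraries, against 5, 12 and 8 in unsorted libraries (log2 fold change 2.82 ± 0.37, limma adjusted p = 0.000111). Wnt5a, the non-canonical ligand of subepithelial cells, had 96, 94 and 107 in GFP-negative libraries, against 69, 116 and 135 in unsorted libraries, and overlapped (log2 fold change -0.05 ± 0.28, limma adjusted p = 0.899).

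R-spondins amplify Wnt signals at LGR receptors of stem cells. Of 3 R-spondin genes tested, 2 were higher, 1 in the authors' deposited table, and 1 was higher without GFP-negative library 3. Rspo3 had 170, 130 and 209 normalised counts in GFP-negative libraries, against 56, 43 and 55 in unsorted libraries (log2 fold change 1.69 ± 0.26, limma adjusted p = 0.000314), with an FDR of 0.0591 in the authors' deposited table. Secreted Wnt inhibitors were higher at the same time, with 6 of 8 higher and 2 lower at a median log2 fold change of 1.84, and 4 higher and 2 lower in the authors' deposited table. The lower count was 1 without unsorted library 2. Sfrp2 had 153, 218 and 116 in GFP-negative libraries, against 29, 36 and 21 in unsorted libraries (log2 fold change 2.45 ± 0.30, limma adjusted p = 7.08e-05). Sfrp5, another member of that family, was lower with 0, 4 and 0 in GFP-negative libraries, against 37, 17 and 9 in unsorted libraries (log2 fold change -3.47 ± 0.73, limma adjusted p = 0.00304).

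BMP and TGF-beta ligands split, where 13.7% of all tested genes were higher and 19.3% lower. Of these ligands, 6 of 16 were higher and 4 lower at a median log2 fold change of 0.61, and 2 higher and 4 lower in the authors' deposited table. Gdf10, also called BMP3b, had 145, 199 and 140 normalised counts in GFP-negative libraries, against 38, 19 and 18 in unsorted libraries (log2 fold change 2.71 ± 0.32, limma adjusted p = 4.73e-05). Bmp1 is a procollagen protease despite its name and not a ligand, but it is counted among the higher genes in both analyses. It had 388, 393 and 345 in GFP-negative libraries, against 89, 160 and 105 in unsorted libraries (log2 fold change 1.70 ± 0.25, limma adjusted p = 0.000276). Those lower were Bmp3, Gdf15, Inhba and Inhbb. Inhba, a subunit of activin A, had 54, 81 and 37 in GFP-negative libraries, against 348, 103 and 318 in unsorted libraries (log2 fold change -2.03 ± 0.44, limma adjusted p = 0.00384). Bmp7, a ligand of subepithelial cells, had 54, 81 and 80 in GFP-negative libraries, against 121, 91 and 92 in unsorted libraries, all below but not past the threshold (limma adjusted p = 0.161).

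Other growth factors split too, where 13.7% of all tested genes were higher and 19.3% lower. Of 22 tested, 10 were higher and 5 lower, with a median log2 fold change of 1.10, and in the authors' deposited table, 2 were higher and 1 lower. The lower count was 3 without unsorted library 2 and 3 without GFP-negative library 3. Fgf10, a mesenchymal factor for epithelium, had 300, 180 and 171 normalised counts in GFP-negative libraries, against 55, 54 and 41 in unsorted libraries (log2 fold change 2.06 ± 0.27, limma adjusted p = 0.000117). Fgf7, keratinocyte growth factor, had 139, 134 and 119 in GFP-negative libraries, against 48, 52 and 19 in unsorted libraries (log2 fold change 1.82 ± 0.35, limma adjusted p = 0.00165). Vegfd, a lymphatic growth factor, had 161, 231 and 243 in GFP-negative libraries, against 75, 75 and 35 in unsorted libraries (log2 fold change 1.82 ± 0.32, limma adjusted p = 0.000821). Ereg, the EGF receptor ligand epiregulin, had 2880, 2901 and 2342 in GFP-negative libraries, against 922, 1042 and 738 in unsorted libraries (log2 fold change 1.59 ± 0.24, limma adjusted p = 0.000283). Hbegf, another EGF receptor ligand made by epithelium and macrophages, was lower with 25, 16 and 35 in GFP-negative libraries, against 72, 199 and 181 in unsorted libraries (log2 fold change -2.46 ± 0.41, limma adjusted p = 0.000646). Of the genes in this paragraph, Fgf7 and Ereg did not pass the FDR of the authors' deposited table.

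**Figure D3:**
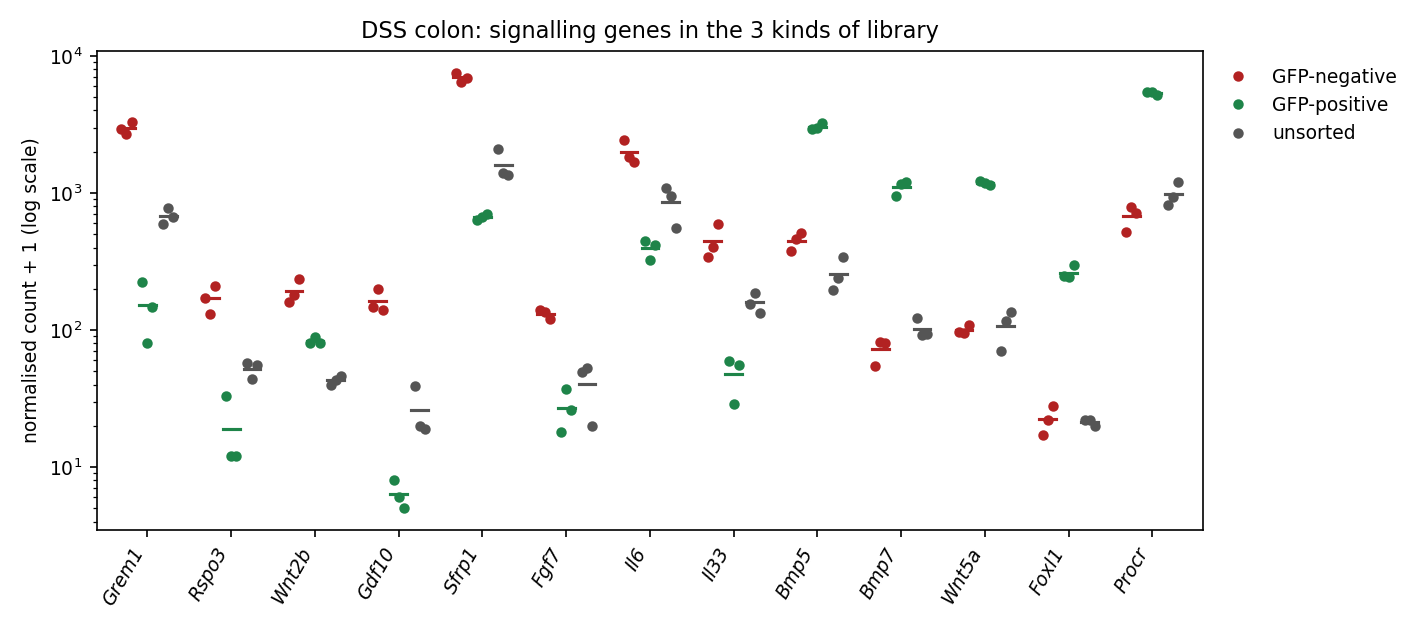
Normalised counts plus 1 on a log axis for 13 signalling genes, with DSS GFP-negative libraries first, DSS GFP-positive libraries next and DSS unsorted libraries last within each gene. Points are libraries and short bars are group means. Grem1, Rspo3, Wnt2b, Gdf10 and Sfrp1 were highest in GFP-negative cells, whereas Bmp5, Bmp7, Wnt5a, Foxl1 and Procr were highest in GFP-positive cells.

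Genes of inflammatory mediators, chemokines and cytokines, split, where 13.7% of all tested genes were higher and 19.3% lower. Of 23 chemokine genes tested, 8 were higher and 10 lower (median log2 fold change -0.39), and in the authors' deposited table, 3 were higher and 6 lower. Those higher included Cxcl12, which retains leukocytes and stem cells at CXCR4, with 4156, 6550 and 6422 normalised counts in GFP-negative libraries, against 1039, 2026 and 1642 in unsorted libraries (log2 fold change 1.89 ± 0.30, limma adjusted p = 0.000461). Cxcl13, which attracts B cells, had 1275, 1528 and 988 in GFP-negative libraries, against 316, 630 and 212 in unsorted libraries (log2 fold change 1.83 ± 0.36, limma adjusted p = 0.00193). Ccl11, eotaxin, had 2198, 1341 and 1512 in GFP-negative libraries, against 579, 555 and 363 in unsorted libraries (log2 fold change 1.75 ± 0.27, limma adjusted p = 0.000381). Ccl2, which attracts monocytes, had 9720, 9171 and 5050 in GFP-negative libraries, against 3983, 2260 and 1518 in unsorted libraries (log2 fold change 1.68 ± 0.37, limma adjusted p = 0.00416), with an FDR of 0.101 in the authors' deposited table. Chemokines known from macrophages and T cells were among the lower ones. Ccl3, a macrophage chemokine, had 6, 10 and 8 in GFP-negative libraries, against 400, 241 and 180 in unsorted libraries (log2 fold change -4.88 ± 0.33, limma adjusted p = 9.36e-07). Ccl4 and Ccl5 were lower too. Cxcl10, an interferon-induced chemokine, had 3083, 1864 and 1699 in GFP-negative libraries, against 2226, 1422 and 1098 in unsorted libraries, and overlapped.

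Of 21 cytokine genes tested, 8 were higher and 10 lower (median log2 fold change -0.52), and in the authors' deposited table, 1 was higher and 10 lower. Il6 had 2439, 1817 and 1683 normalised counts in GFP-negative libraries, against 1083, 942 and 555 in unsorted libraries (log2 fold change 1.24 ± 0.29, limma adjusted p = 0.00555), without overlap but with an FDR of 0.221 in the authors' deposited table. Il33, an alarmin stored in stromal nuclei, had 340, 400 and 593 in GFP-negative libraries, against 155, 186 and 133 in unsorted libraries (log2 fold change 1.46 ± 0.26, limma adjusted p = 0.000981; deposited FDR 0.0761). Tnfsf13b, which encodes the B cell survival factor BAFF, had 570, 268 and 190 in GFP-negative libraries, against 131, 64 and 55 in unsorted libraries (log2 fold change 1.98 ± 0.41, limma adjusted p = 0.00308), and was the 1 cytokine called higher in the authors' deposited table. Cytokines known from myeloid cells were among the lower ones. Il1b had 106, 52 and 171 in GFP-negative libraries, against 19233, 8224 and 9828 in unsorted libraries (log2 fold change -6.87 ± 0.42, limma adjusted p = 7.03e-07). Tnf had 6, 7 and 5 in GFP-negative libraries, against 446, 329 and 254 in unsorted libraries (log2 fold change -5.59 ± 0.29, limma adjusted p = 2.23e-07). Il1rn, the interleukin 1 receptor antagonist, had 118, 139 and 155 in GFP-negative libraries, against 4376, 5806 and 5133 in unsorted libraries (log2 fold change -5.21 ± 0.23, limma adjusted p = 1.99e-07). For these 3 genes every unsorted library was more than an order of magnitude above every GFP-negative library.

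Binding sites for NF-kappaB, the factor that drives many of these genes in inflammation, were looked up in promoter windows of 300 bases from RefSeq (GRCm38.p6), from 250 bases before each start site. The kappaB motif, searched on both strands, was present in 4.51% of 32851 windows. That share is per window, whereas a gene was counted when any of its windows held the motif, so the units differ. Among chemokine and cytokine genes with a window it was present in 3 of 10 higher genes (Cxcl1, Il6 and Csf1), in 3 of 14 lower genes (Ccl20, Cxcl2 and Cxcl3) and in 1 of 5 that did not pass (Cxcl10). The motif thus occurred in genes of both directions. The 150 bases before the start site of Il6 (chr5:30012964-30013113, plus strand) are shown with the motif in capitals, because Il6 was a higher cytokine whose window held the motif. The match describes these letters, and binding was not measured.
Il6: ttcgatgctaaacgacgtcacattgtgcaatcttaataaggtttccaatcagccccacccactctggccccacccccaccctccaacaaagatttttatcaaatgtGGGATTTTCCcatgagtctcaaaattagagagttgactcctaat

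Complement genes split. Of 15 tested, 9 were higher and 5 lower (median log2 fold change 1.16), and in the authors' deposited table, 5 were higher and 5 lower. The lower genes were C1qa, Cfd, Cfp, C3ar1 and C5ar1, and their count was 3 without unsorted library 3. C4b, a component of the classical pathway, had 4069, 6209 and 4902 normalised counts in GFP-negative libraries, against 884, 1144 and 1246 in unsorted libraries (log2 fold change 2.21 ± 0.26, limma adjusted p = 4.47e-05). C1ra, the protease of the C1 complex, had 3782, 4443 and 4596 in GFP-negative libraries, against 1025, 1351 and 1074 in unsorted libraries (log2 fold change 1.90 ± 0.24, limma adjusted p = 7.25e-05). Cd55, which protects cells from complement, had 423, 277 and 292 in GFP-negative libraries, against 124, 63 and 76 in unsorted libraries (log2 fold change 1.94 ± 0.29, limma adjusted p = 0.000269). C3ar1, the receptor for the C3a fragment, had 3, 2 and 4 in GFP-negative libraries, against 133, 111 and 84 in unsorted libraries (log2 fold change -4.79 ± 0.36, limma adjusted p = 1.74e-06).

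A list of genes for contact with leukocytes, which also held the cytokine receptor gene Il1r1, was mostly lower. Of its genes, 9 of 13 were lower and 2 higher at a median log2 fold change of -1.72, and 7 lower and 0 higher in the authors' deposited table. Those higher were Vcam1 and Il1r1. Vcam1, which binds integrins of leukocytes, had 4506, 5503 and 3755 normalised counts in GFP-negative libraries, against 2544, 2269 and 1561 in unsorted libraries (log2 fold change 1.12 ± 0.27, limma adjusted p = 0.00683). Il1r1, the signalling receptor for interleukin 1, had 200, 157 and 137 in GFP-negative libraries, against 68, 60 and 37 in unsorted libraries (log2 fold change 1.59 ± 0.28, limma adjusted p = 0.000921), so the receptor was higher where its ligand Il1b was lower. Cd274, the checkpoint ligand PD-L1, had 102, 106 and 141 in GFP-negative libraries, against 902, 874 and 940 in unsorted libraries (log2 fold change -2.96 ± 0.22, limma adjusted p = 1.84e-06).

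Immediate early genes are known to respond within minutes to many stimuli, cell isolation among them. Of 23 immediate early and heat shock genes tested, 14 were higher and 0 lower (median log2 fold change 0.97), but 1 was higher in the authors' deposited table and 8 without GFP-negative library 2. The count was 9 after quantile normalisation. The high level was not particular to GFP-negative cells. Summed over the 24 listed genes, it was 216110, 268491 and 204141 in GFP-negative libraries and 201153, 249907 and 155859 in DSS GFP-positive libraries. Unsorted libraries had 119740, 101537 and 105747. Between the sorts, 5 of 23 genes were higher in GFP-negative cells, 0 were lower and 18 did not pass. Egr1, a zinc finger factor, had 37278, 44732 and 38235 normalised counts in GFP-negative libraries, against 6884, 9201 and 10875 in unsorted libraries (log2 fold change 2.18 ± 0.27, limma adjusted p = 7.44e-05; deposited FDR 0.095). Zfp36, which destabilises cytokine messenger RNA, was the 1 gene that also passed in the authors' deposited table, with 7605, 19868 and 11907 in GFP-negative libraries, against 2904, 2876 and 3719 in unsorted libraries (log2 fold change 1.95 ± 0.33, limma adjusted p = 0.000717). The time from isolation to lysis of either group is not given in the sources used here. The CArG box bound by serum response factor, searched on both strands, was present in 1.63% of all promoter windows, in 2 of 10 higher genes with a window (Egr2 and Zfp36) and in 0 of 8 that did not pass. Here too the share is per window and the counts are per gene. The 150 bases before the start site of Zfp36 (chr7:28379229-28379378, minus strand, GRCm38.p6) are shown with the CArG box in capitals because Zfp36 was called in both analyses.
Zfp36: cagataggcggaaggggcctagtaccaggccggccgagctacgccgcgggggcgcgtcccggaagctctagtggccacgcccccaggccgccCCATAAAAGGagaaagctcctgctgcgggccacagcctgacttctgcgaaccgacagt

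Proliferation genes were lower in GFP-negative cells. Of 27 cell cycle genes tested, 24 were lower and 0 higher, with a median log2 fold change of -2.04, and 11 were lower in the authors' deposited table. Top2a, the topoisomerase of dividing cells, had 41, 37 and 46 normalised counts in GFP-negative libraries, against 338, 205 and 259 in unsorted libraries (log2 fold change -2.64 ± 0.25, limma adjusted p = 1.09e-05). Mki67, the antigen Ki-67, had 2, 5 and 7 in GFP-negative libraries, against 48, 46 and 40 in unsorted libraries (log2 fold change -3.12 ± 0.43, limma adjusted p = 0.000148). Epithelial and leukocyte markers fell with them, and their part in this result was not tested. Of 19 glycolysis and hypoxia genes tested, 13 were lower and 0 higher (median log2 fold change -0.99), with 1 lower in the authors' deposited table. That 1 was Slc16a3, the lactate exporter MCT4, with 150, 160 and 120 in GFP-negative libraries, against 1487, 629 and 1057 in unsorted libraries (log2 fold change -2.80 ± 0.30, limma adjusted p = 2.48e-05). Of 23 cytosolic ribosomal protein genes 0 passed, with a median log2 fold change of -0.27.

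**Figure D4:**
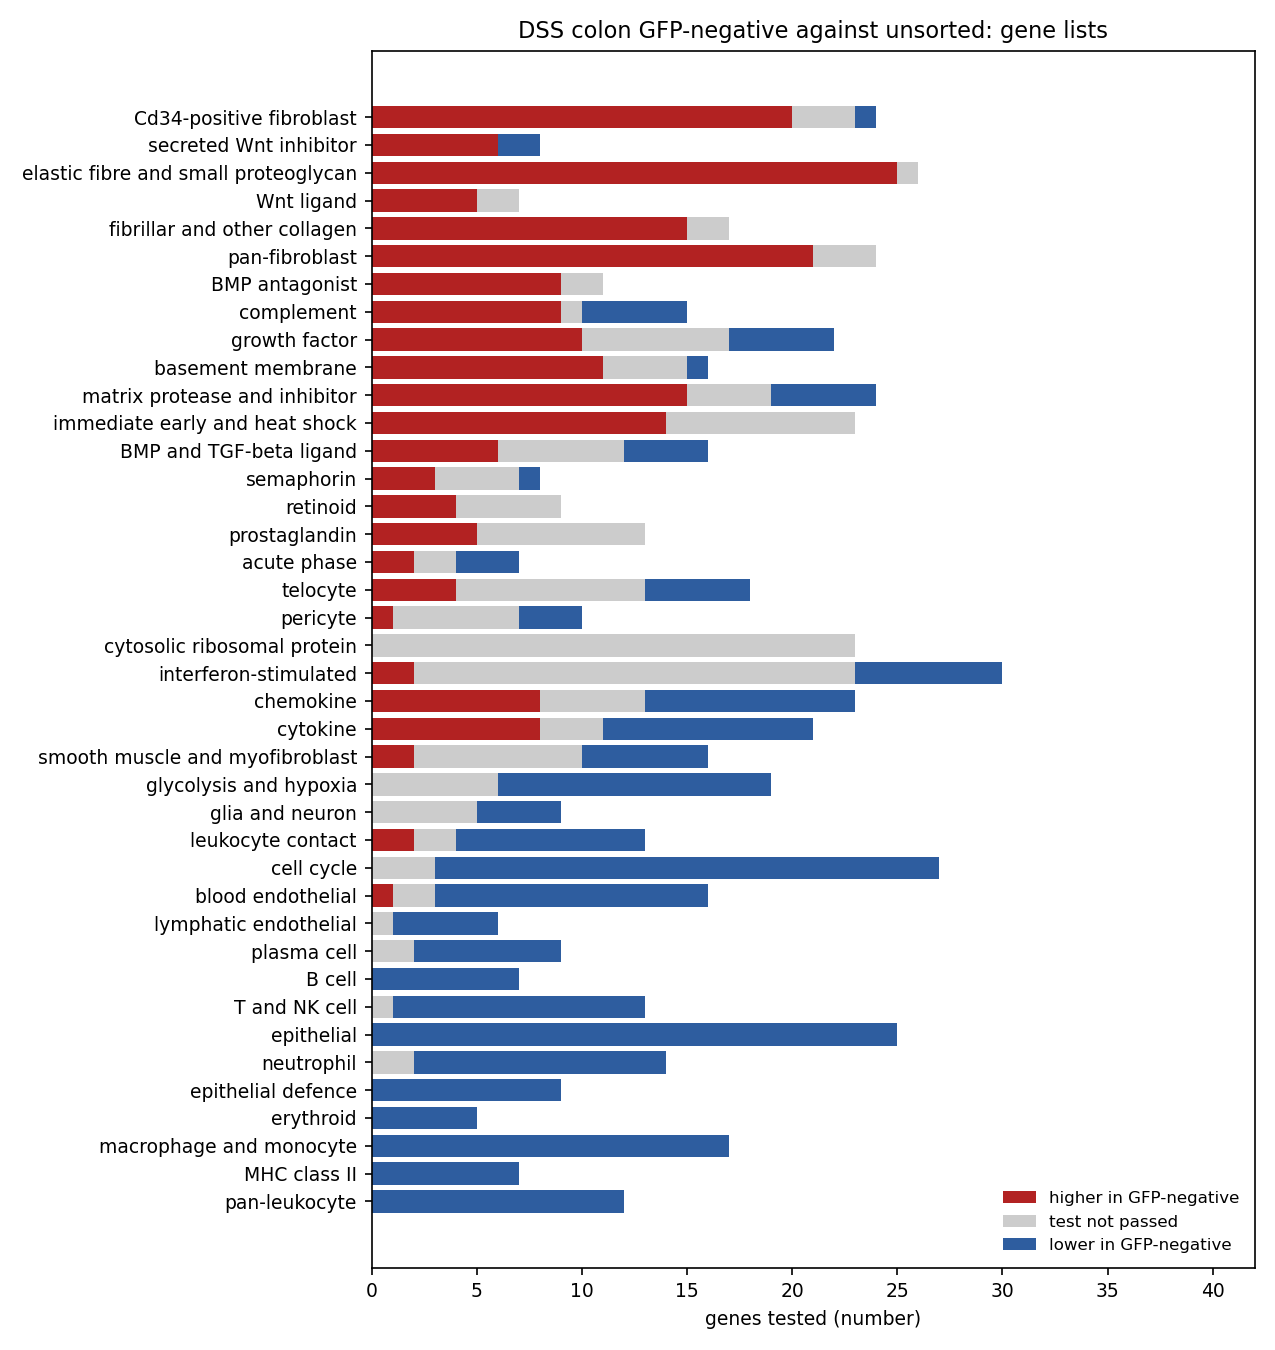
Number of tested genes of each list that were higher, did not pass the test or were lower in DSS GFP-negative than in DSS unsorted cells at a limma adjusted p of 0.05. The pan-fibroblast, CD34-positive fibroblast, collagen and elastic fibre lists were mostly higher, the epithelial, pan-leukocyte and macrophage lists were lower in every tested gene, and the telocyte, chemokine and cytokine lists held genes of both directions.

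Over all genes, the largest rises among genes with a mean of at least 100 normalised counts in the higher group and no overlap included genes of secreted and matrix proteins. The first was Cpxm1, an inactive carboxypeptidase homologue, with 123, 232 and 233 normalised counts in GFP-negative libraries, against 16, 12 and 40 in unsorted libraries (log2 fold change 3.18 ± 0.42, limma adjusted p = 0.000125). Fmo2, a flavin monooxygenase, had 475, 480 and 592 in GFP-negative libraries, against 45, 108 and 62 in unsorted libraries (log2 fold change 2.92 ± 0.30, limma adjusted p = 1.8e-05). Mn1, a transcriptional coactivator, had 197, 140 and 146 in GFP-negative libraries, against 22, 21 and 20 in unsorted libraries (log2 fold change 2.86 ± 0.26, limma adjusted p = 6.53e-06). Cilp, a cartilage matrix protein that binds TGF-beta, had 600, 299 and 484 in GFP-negative libraries, against 87, 76 and 59 in unsorted libraries (log2 fold change 2.58 ± 0.28, limma adjusted p = 2.97e-05). Gabra3, a subunit of the GABA-A receptor, also stood among the 12 largest rises, with 270, 270 and 207 in GFP-negative libraries, against 45, 36 and 37 in unsorted libraries (log2 fold change 2.63 ± 0.24, limma adjusted p = 7.01e-06). Most of the 12 largest falls were of pancreatic enzyme genes, given at the end, with Amy2a2 the first. The others were the goblet cell gene Retnlb and the myeloid genes Mcemp1, Fcgr4 and Il1b. Fcgr4, an Fc receptor of monocytes and neutrophils, had 1, 2 and 2 in GFP-negative libraries, against 606, 313 and 178 in unsorted libraries (log2 fold change -6.95 ± 0.42, limma adjusted p = 4.68e-07). Mcemp1, a membrane protein of myeloid cells, had 0, 0 and 5 in GFP-negative libraries, against 283, 273 and 259 in unsorted libraries (log2 fold change -7.23 ± 0.59, limma adjusted p = 5.09e-06).

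Since the GFP-negative and the GFP-positive sort would each be compared with the same 3 unsorted libraries, both sorts were compared with each other directly. Of 12570 genes tested, 1119 (8.90%) were higher and 1033 (8.22%) lower in DSS GFP-negative than in DSS GFP-positive cells, and 2152 differed in all. Without GFP-positive library 1 the total was 1431, with 823 higher and 608 lower, and without GFP-positive library 2 there were 852 higher and 654 lower. CD34-positive fibroblast genes were higher in 19 of 23 and lower in 2, with a median log2 fold change of 2.59, and telocyte genes were lower in 15 of 18 and higher in 1, with a median of -3.29. Markers of other cell types moved with them, since 7 of 14 epithelial genes and 4 of 7 plasma cell genes were higher and 0 of either list lower, with median log2 fold changes of 1.73 and 2.49. Epithelial genes summed to 391, 403 and 1062 normalised counts in GFP-negative libraries, against 249, 237 and 217 in GFP-positive libraries. The part of these cells in the differences between the sorts was not tested. Grem1 had 2914, 2690 and 3318 normalised counts in GFP-negative libraries, against 223, 80 and 147 in GFP-positive libraries (log2 fold change 4.41, limma adjusted p = 1.08e-06). Gdf10 had 145, 199 and 140 in GFP-negative libraries, against 7, 5 and 4 in GFP-positive libraries (log2 fold change 4.69, limma adjusted p = 8.19e-08). Procr had 519, 792 and 712 in GFP-negative libraries, against 5478, 5462 and 5215 in GFP-positive libraries (log2 fold change -3.02, limma adjusted p = 9.22e-08). Unsorted libraries lay between the sorts for these 3 genes. Bmp7 had 54, 81 and 80 in GFP-negative libraries, against 944, 1160 and 1194 in GFP-positive libraries (log2 fold change -3.94, limma adjusted p = 1.99e-08). Wnt5a had 96, 94 and 107 in GFP-negative libraries, against 1227, 1190 and 1144 in GFP-positive libraries (log2 fold change -3.57, limma adjusted p = 1.99e-08). Foxl1 had 16, 21 and 27 in GFP-negative libraries, against 247, 243 and 295 in GFP-positive libraries (log2 fold change -3.58, limma adjusted p = 9.56e-08). These telocyte genes, which did not pass against unsorted cells, separated the sorts without overlap.

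Among the 4 markers, Ackr4 had 166, 252 and 267 normalised counts in GFP-negative libraries, against 11, 37 and 48 in GFP-positive libraries (log2 fold change 3.00, limma adjusted p = 0.000665). C3 had 1598, 1551 and 1401 and Sfrp1 had 632, 669 and 705 in GFP-positive libraries, with log2 fold changes of 3.07 and 3.38 (limma adjusted p = 8.19e-08 and 1.99e-08). Adamts2 differed least of the 4, with 585, 423 and 331 in GFP-positive libraries (log2 fold change 1.36, limma adjusted p = 0.000486). Among mediators, Il6 had 2439, 1817 and 1683 in GFP-negative libraries, against 445, 321 and 413 in GFP-positive libraries (log2 fold change 2.32, limma adjusted p = 1.05e-06). Il33 had 340, 400 and 593 in GFP-negative libraries, against 58, 28 and 55 in GFP-positive libraries (log2 fold change 3.24, limma adjusted p = 2.75e-06). Both were higher in the GFP-negative sort than in either other DSS group. Not every fibroblast gene followed this order. Pdgfra was lower in GFP-negative than in GFP-positive libraries, with 2955, 3049 and 3424 in the GFP-positive ones (log2 fold change -1.51, limma adjusted p = 3.6e-05). Col6a1 had 968, 491 and 406 in GFP-negative libraries, against 675, 804 and 661 in GFP-positive libraries, and the groups overlapped (log2 fold change -0.30, limma adjusted p = 0.507). Without GFP-negative library 1 it was lower (-0.67, adjusted p = 0.0108).

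Whether the same contrast differed in uninflamed tissue was tested as the difference between the GFP-negative over unsorted log2 fold changes of DSS and normal colon. Each table has its own scale, so levels are compared only within DSS or within normal colon. Of 14739 genes in both tables that were tested, 13 (0.0882%) differed, 5 with a higher and 8 with a lower fold change in DSS, and 1080 had an unadjusted p under 0.05. The count depended on single libraries. It was 53 without normal unsorted library 1, 9 without normal GFP-negative library 1, 5 without DSS unsorted library 3, and 2 or 3 without each other library except normal GFP-negative library 3, without which it was 12. The gene lists held 3 of these genes, Chrdl2, Mmp13 and Slc16a3. Of the CD34-positive and pan-fibroblast genes 0 differed, with median differences of 0.24 and 0.42 where the median over all genes was 0.04.

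The direction of Chl1 changed between the tissues. Chl1 (ENSMUSG00000030077, mm10 chr6:103510586-103750211, plus strand) encodes a neural cell adhesion molecule of the L1 family. In DSS colon it had 2967, 3662 and 3707 normalised counts in GFP-negative libraries, against 847, 914 and 927 in unsorted libraries. In normal colon it had 80, 46 and 42 in GFP-negative libraries, against 257, 199 and 156 in unsorted libraries. The groups did not overlap in either tissue, and GFP-negative cells were the higher group in DSS colon and the lower one in normal colon. The difference of log2 fold changes was 3.81 ± 0.42 (SE, n = 3 each, limma adjusted p = 0.00124). Chrdl2, a chordin-like BMP antagonist, had 126, 77 and 83 in DSS GFP-negative libraries, against 55, 35 and 18 in DSS unsorted libraries. In normal colon it had 10, 6 and 5 in GFP-negative libraries, against 31, 22 and 30 in unsorted libraries, a difference of 3.36 ± 0.60 (limma adjusted p = 0.0474). This call was lost with equal totals (adjusted p = 0.0615), with equal totals without the highest genes (0.0557) and after quantile normalisation (0.0866). It was lost as well without each library (adjusted p 0.076 to 0.183) except normal unsorted library 1 and normal GFP-negative library 1. Mmp13 was lower in the sort in both tissues but by less in DSS, with 6, 6 and 0 in normal GFP-negative libraries, against 408, 229 and 364 in normal unsorted libraries (difference 5.20 ± 0.80, limma adjusted p = 0.0262). That call was lost without each DSS library, without normal unsorted library 2 and without normal unsorted library 3 (adjusted p 0.0646 to 0.105). Syk, a kinase of leukocyte receptors, was further below unsorted cells in DSS colon, with 22, 22 and 30 in DSS GFP-negative libraries, against 606, 487 and 542 in DSS unsorted libraries. In normal colon it had 56, 47 and 35 in GFP-negative libraries, against 222, 169 and 222 in unsorted libraries, a difference of -2.28 ± 0.39 (limma adjusted p = 0.0352). The Syk call was lost without each library (adjusted p 0.0755 to 0.136) except normal unsorted library 1 and normal GFP-negative library 3. The leukocyte gene Ptprc was lower in the sort of both tissues, with 3, 12 and 5 in normal GFP-negative libraries, against 169, 107 and 146 in normal unsorted libraries, and the part of leukocytes in this difference was not tested.

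Of the 4 markers, none had a difference between the tissues that passed. Ackr4 had 229, 233 and 352 normalised counts in normal GFP-negative libraries, against 205, 133 and 117 in normal unsorted libraries, a log2 fold change of 0.85 beside 2.52 in DSS colon (difference 1.68 ± 0.48, limma adjusted p = 0.339). Sfrp1 had a log2 fold change of 2.14 in DSS colon and 1.79 in normal colon (difference 0.35 ± 0.44, limma adjusted p = 0.921). C3 had 2.43 in DSS colon and 2.62 in normal colon (difference -0.18 ± 0.50, limma adjusted p = 0.969). Adamts2 had 2.16 in DSS colon and 1.69 in normal colon (difference 0.46 ± 0.56, limma adjusted p = 0.92). A difference that missed the threshold does not show that the tissues were alike.

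**Figure D5:**
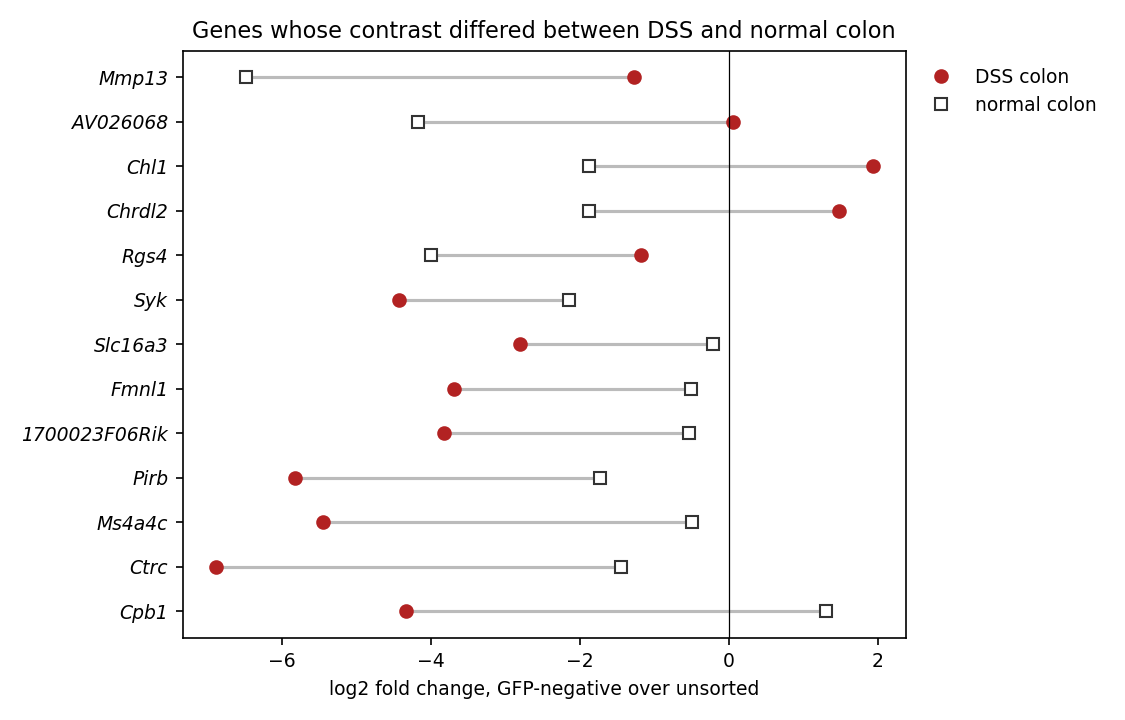
GFP-negative over unsorted log2 fold change in DSS colon beside that in normal colon for the 13 genes whose difference passed. Chl1 and Chrdl2 lay above 0 in DSS colon and below 0 in normal colon, and Ctrc, Pirb, Ms4a4c, Fmnl1 and Syk lay further below 0 in DSS colon.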

How the data were processed

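RNA of each sample was read with QuantSeq 3′ libraries on an Ion Proton sequencer, per the labels' protocols, and the authors used TopHat2, Bowtie2, DESeq and the mm10 build, per the submitters' processing notes. Not given in the sources used here were versions, the counting program, its use of strand, the annotation and any filter. The deposited values are whole-number scores, which the authors made by normalising gene counts and rounding them, so they are not raw counts and no count model was run on them. The deposited table also holds the authors' log2 fold changes and their DESeq p-values and FDR, which served as an alternative. The depths were estimated from which whole numbers occur among the low deposited values, since these are reads times a factor, and they limit the precision of low genes.

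Values were analysed as log2(value + 1) with limma 3.58.1 in R 4.3.3, using a mean-variance trend, robust variance and no replicate block, after dropping genes whose mean was under 10 in both groups. Benjamini-Hochberg adjusted p-values ran over all genes tested and the threshold was 0.05. Only the groups compared entered each fit. The difference between DSS and normal colon compared the within-table differences of both tables over genes in both. The procedure was tested on simulated data. For 1 symbol with several identifiers, the one with the higher mean was used. Promoter windows came from RefSeq.

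Genes named were the markers, the largest changes over all genes, and in each list those with the largest changes or the highest levels. Col6a3, Fbn2, Fcer1g, H2-Aa, Mylk, Nid2 and Reg3b, together with genes named only as members of a count, were named after their values were seen. The members and lists were chosen with earlier results of these data known. Alternatives were other pseudocounts, filters, scalings and variance settings, a replicate block, a minimum fold, each library left out, and 1 fit of all DSS groups.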

Additional observations from a re-analysis of the deposited data

Results flagged for a closer look

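Of the results computed, those flagged were the 13 genes whose GFP-negative over unsorted log2 fold change differed between DSS and normal colon in the test of the difference itself (limma, Benjamini-Hochberg adjusted p under 0.05). Each value below is the DSS minus the normal log2 fold change, and no explanation was tested. Of the 13, AV026068 and Chl1 passed under every alternative run. Each of the others lost its call under several, mostly when 1 library was left out, and 132 of the 273 alternative values did not pass. The adjusted p-values below are those of the main fit. The fold change was higher in DSS for 5 of them and lower for 8.

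Mmp13, a collagenase, had a difference of 5.20 (adjusted p = 0.0262), with 6, 6 and 0 normalised counts in normal GFP-negative libraries, against 408, 229 and 364 in normal unsorted libraries. AV026068, a gene to which no role is given here, had a difference of 4.23 (adjusted p = 0.00193). It had 22, 15 and 16 in DSS GFP-negative libraries, against 17, 16 and 17 in DSS unsorted libraries. In normal colon it had 10, 10 and 8 in GFP-negative libraries, against 152, 145 and 281 in unsorted libraries, so the groups overlapped in DSS colon and lay apart in normal colon. The difference was 3.81 (adjusted p = 0.00124) for Chl1 and 3.36 (adjusted p = 0.0474) for Chrdl2. Rgs4, a regulator of G protein signalling, had a difference of 2.82 (adjusted p = 0.0262), with 69, 51 and 62 in DSS GFP-negative libraries, against 112, 152 and 151 in DSS unsorted libraries. In normal colon Rgs4 had 9, 6 and 7 in GFP-negative libraries, against 92, 158 and 153 in unsorted libraries.

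Among the 8 lower genes, Syk had a difference of -2.28 (adjusted p = 0.0352) and Slc16a3 of -2.59 (adjusted p = 0.0334). Slc16a3 overlapped between the groups in normal colon, with 101, 91 and 84 in GFP-negative libraries, against 109, 88 and 125 in unsorted libraries. Pirb, an inhibitory receptor of myeloid and B cells, had a difference of -4.09 (adjusted p = 0.0474), with 3, 3 and 2 in DSS GFP-negative libraries, against 288, 189 and 156 in DSS unsorted libraries. Ms4a4c had a difference of -4.96 (adjusted p = 0.0262), with 2, 2 and 1 in DSS GFP-negative libraries, against 161, 81 and 111 in DSS unsorted libraries. Fmnl1, a leukocyte formin, had a difference of -3.19 (adjusted p = 0.0334) and 1700023F06Rik of -3.28 (adjusted p = 0.0262). These 2 genes lie on opposite strands with adjoining 3′ ends, and whether counting used strand is not given in the sources used here, so their reads cannot be told apart with certainty.

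The pancreatic enzyme genes Ctrc and Cpb1 had differences of -5.44 (adjusted p = 0.0403) and -5.64 (adjusted p = 0.0474). Ctrc, which shares its locus and strand with Cela2a, had 1, 0 and 4 in DSS GFP-negative libraries, against 554, 233 and 126 in DSS unsorted libraries. In normal colon Ctrc had 1, 0 and 1 in GFP-negative libraries, against 3, 3 and 4 in unsorted libraries, which is at the level of a few reads. Cpb1 had 7, 10 and 16 in DSS GFP-negative libraries, against 362, 212 and 156 in DSS unsorted libraries. Its values in normal colon were low and overlapped, with 3, 16 and 24 in GFP-negative libraries, against 13, 1 and 3 in unsorted libraries (log2 fold change 1.31).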

How the results depend on the processing

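For GFP-negative against unsorted cells, 4509 genes passed, 1625 by the FDR of the authors' deposited table, 3305 to 4324 with 1 library left out, and 3681 without both GFP-negative library 3 and unsorted library 1, an alternative chosen after seeing the data. For the difference between DSS and normal colon, 13 genes passed, 24 with a pseudocount of 5, 7 with a mean of at least 50, 29 after quantile normalisation, 3 with neither trend nor robust variance, and 2 to 53 with 1 library left out. Of its 273 alternative values for single genes, 141 stayed past the threshold and 132 did not, and AV026068 and Chl1 passed in all. For GFP-negative against GFP-positive cells, 2152 genes passed, 1364 with a change of 1 or more on the log2 scale required too, and 1431 to 2040 with 1 library left out. With the replicate number as a block the counts were 5680, 5 and 2402 in that order. Deviations of same-numbered libraries correlated at 0.36, 0.04 and 0.29, and those of differently numbered libraries at -0.38 to 0.14. These values do not settle whether the numbers are pairs. The labels give no pairing, so the main fits used no block. With the block Procr passed against unsorted cells (-0.55, adjusted p = 0.043). Of 1829 alternative values for 102 named genes against unsorted cells, 1798 kept direction and side of the threshold. Those that turned were of genes that did not pass. Foxl1 was -0.13 with equal totals, -0.069 with equal totals without the highest genes, -0.12 without GFP-negative library 3 and unsorted library 1, and between -0.14 and 0.22 with 1 library left out. Wnt5a was 0.038 after quantile normalisation and between -0.34 and 0.14 with 1 library left out. The median over the cytokine list was 0.32 where a mean of at least 50 was required. The cause of these changes was not tested. Genes under about 10 normalised counts are limited by depth.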

Other observations

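Genes of the exocrine pancreas were read in DSS unsorted cells and were low in the sort. These genes were picked after their values were seen, so no test of the group is given. Prss2, a trypsinogen, had 0, 0 and 0 normalised counts in GFP-negative libraries, against 242, 264 and 111 in unsorted libraries. Ctrb1, a chymotrypsinogen, had 0, 0 and 1 in GFP-negative libraries, against 574, 589 and 128 in unsorted libraries. Amy2a2, one of several near-identical amylase genes among which reads may be shared, had 1, 2 and 2 in GFP-negative libraries, against 4066, 507 and 308 in unsorted libraries. Unsorted library 1 held most of the amylase reads. The source of these reads was not tested.

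Noncoding RNAs of the imprinted Dlk1 to Meg3 region on mouse chromosome 12 were higher in the sort. They were also grouped after their values were seen. Meg3 had 2381, 3699 and 3414 in GFP-negative libraries, against 218, 677 and 696 in unsorted libraries (log2 fold change 2.73, limma adjusted p = 0.000313). Rian had 106, 187 and 121 in GFP-negative libraries, against 33, 20 and 34 in unsorted libraries (log2 fold change 2.21, limma adjusted p = 0.000164). Mirg had 161, 165 and 106 in GFP-negative libraries, against 18, 39 and 21 in unsorted libraries (log2 fold change 2.48, limma adjusted p = 0.000107). In GFP-positive libraries Meg3 had 1980, 1405 and 1201.

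Retinoid genes had 4 of 9 tested higher and 0 lower, 1 higher in the authors' deposited table, and 1 lower without unsorted library 2. Aldh1a3, which makes retinoic acid, had 312, 385 and 329 in GFP-negative libraries, against 68, 63 and 74 in unsorted libraries (log2 fold change 2.30, limma adjusted p = 1.07e-05). Interferon-stimulated genes showed little common movement, with 2 of 30 tested higher and 7 lower at a median log2 fold change of -0.27, and 0 higher and 2 lower in the authors' deposited table. For both lists the shares to set beside these counts are those of all tested genes, 13.7% higher and 19.3% lower. The lower count was 3 without unsorted library 1, 2 without GFP-negative library 2 and 3 without GFP-negative library 3. The higher count was 0 without unsorted library 2 or GFP-negative library 2, and 1 without unsorted library 3, GFP-negative library 1 or GFP-negative library 3.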
